A study of Mus musculus with 6 samples.

Results

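Transcripts of 10 genes known from heart muscle were read in bulk messenger RNA of the mouse temporal lobe: Mb, Myl2, Myl3, Myh6, Actc1, Tnnt2, Tnni3, Tnnc1, Pln and Nppa. They are 10 of the 36079 genes in the table, were found there by gene identifier, and were listed whatever their level. The set was selected on measured values, since earlier results of these libraries had shown Mb and Myl3 lower on a ketogenic diet. The difference between the diets is therefore described for the 10 genes and not tested. All 6 mice had epilepsy induced by KA, kainic acid, which activates a class of glutamate receptors and sets off seizures. Of these, 3 then ate a chow diet and 3 a ketogenic diet, which is high in fat and low in carbohydrate, for 3 weeks. No mouse without kainic acid is among the samples, so both groups share that treatment. The sources used here do not give strain, age, or whether blood was washed out of the tissue. Expression is in FPKM, fragments scaled to gene length and sequencing depth, which allows levels of different genes to be compared.

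In a heart muscle cell, force comes from thick filaments of myosin pulling on thin filaments of actin. Calcium released in each beat binds troponin C, which moves troponin I and troponin T and opens actin to myosin, and phospholamban sets how fast calcium is pumped back. Myoglobin stores oxygen beside the mitochondria, and the atria secrete natriuretic peptides into the blood. In adult mice the ventricles use the heavy chain Myh6 with the light chains Myl2 and Myl3, while the atria use Myl7 and Myl4. Several of these genes are also used in slow skeletal muscle.

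The libraries are those of a brain. Snap25, a synaptic vesicle fusion protein, ran from 262 to 413 FPKM, and all 10 markers of neurons and glia were measured in every library. Each library held 39927217 to 55910355 recovered reads. Chow replicate 1 stood apart in myelin, with Mbp at 753 FPKM against 222 to 478 FPKM in the others, and had the lowest level of the cortical neuron gene Slc17a7, 62.6 FPKM. It was also the library highest in 9 of the 10 heart muscle genes, so values without it are given below. The labels number the mice but give no litter, batch or day, so p-values below measure only the spread between these samples, which may be technical.

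Sequence upstream of the start is shown for 3 of the genes. Actc1 and Myl3 followed the same order over the libraries, as did Mb, Myl2, Myh6, Tnni3 and Pln, while Tnnc1 did not. The 250 bases before the annotated start are given 5′ to 3′, from RefSeq on GRCm38.p6, an earlier build than the table's, with all 10 genes matched. Capitals mark a CArG box, the site bound by serum response factor, or the letters CATTCC, the M-CAT element bound by TEAD factors, on either strand. The windows are chr2:114052876-114053125, minus strand for Actc1, chr9:110763428-110763677, plus strand for Myl3 and chr14:31208062-31208311, plus strand for Tnnc1.
Actc1: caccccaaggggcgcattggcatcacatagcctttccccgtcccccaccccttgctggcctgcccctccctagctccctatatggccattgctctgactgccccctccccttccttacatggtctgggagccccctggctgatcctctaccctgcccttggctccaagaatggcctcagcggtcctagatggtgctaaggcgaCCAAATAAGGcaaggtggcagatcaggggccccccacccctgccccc
Myl3: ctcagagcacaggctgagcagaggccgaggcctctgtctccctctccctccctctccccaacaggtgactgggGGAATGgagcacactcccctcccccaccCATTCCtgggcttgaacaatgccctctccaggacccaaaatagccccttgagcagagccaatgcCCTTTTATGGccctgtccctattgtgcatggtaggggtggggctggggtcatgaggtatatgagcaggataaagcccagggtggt
Tnnc1: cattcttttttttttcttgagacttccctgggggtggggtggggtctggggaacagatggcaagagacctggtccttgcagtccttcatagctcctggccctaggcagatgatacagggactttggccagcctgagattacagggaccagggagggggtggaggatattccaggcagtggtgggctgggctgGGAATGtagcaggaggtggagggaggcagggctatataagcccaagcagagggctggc
A CArG box lay upstream of 2 of the 10 genes, Actc1 and Myl3, and of 1.48% of 32536 windows of the same length. Mb, Myl2, Myh6, Tnni3 and Pln, which followed the same order over the libraries, had none. CATTCC lay upstream of 4, namely Myh6, Myl3, Tnnc1 and Tnnt2, against 12.6% of all windows. The letters AGATAA, read by factors of the Gata family, were found for 3 genes and 9.97% of windows. The TATA box letters TATAAA were found for 3 genes and 12.3% of windows, and a MEF2 site for 0 genes and 2.89% of windows. Every start listed for a gene was searched, and Mb had 3 of them and Myl2 and Tnnt2 2 each. The motifs do not overlap one another in these windows, and a match is only a match of letters.

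The 3 myosin genes of the set were lower in every ketogenic library than in any chow library. Myh6 (ENSMUSG00000040752), the α-myosin heavy chain and main motor of the adult mouse heart, measured 8.25, 4.09 and 4.81 FPKM in chow replicates 1, 2 and 3 and 1.40, 1.75 and 3.30 FPKM in ketogenic replicates 1, 2 and 3. The lowest chow library thus lay above the highest ketogenic one, and the means were 5.72 ± 2.23 and 2.15 ± 1.01 FPKM (SD, n = 3 each). Myl2 (ENSMUSG00000013936), the regulatory light chain of ventricular myosin, measured 8.76, 3.90 and 5.01 FPKM on chow against 1.38, 2.00 and 3.47 FPKM with the ketogenic diet. Its groups did not overlap either, although chow replicate 2 and ketogenic replicate 3 were close. Myl3 (ENSMUSG00000059741), the essential light chain of ventricular and slow skeletal myosin, measured 3.49, 2.09 and 2.57 FPKM on chow against 0.608, 0.719 and 1.18 FPKM with the ketogenic diet. Relative to its level it had the narrowest spread within groups of the 3 myosin genes, with means of 2.71 ± 0.711 and 0.835 ± 0.303 FPKM. The chow mean was 2.66 times the ketogenic mean for Myh6, 2.58 times for Myl2 and 3.25 times for Myl3.

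On the thin filament, cardiac actin and troponin I followed the myosins and the other troponins did not. Actc1 (ENSMUSG00000068614), the α-actin of heart muscle, measured 11.04, 5.10 and 6.11 FPKM in the 3 chow libraries and 1.14, 1.84 and 3.56 FPKM in the 3 ketogenic libraries. Its groups were apart, with a chow mean 3.40 times the ketogenic mean. Tnni3 (ENSMUSG00000035458), the troponin I of adult heart that holds actin off between beats, measured 4.54, 1.82 and 3.13 FPKM on chow against 0.404, 0.895 and 1.26 FPKM with the ketogenic diet. It spanned the widest range of the 10 genes, 11.2-fold from chow replicate 1 to ketogenic replicate 1. Tnnt2 (ENSMUSG00000026414), which ties the troponin complex to tropomyosin, measured 1.70, 1.13 and 1.55 FPKM on chow against 1.15, 0.973 and 1.30 FPKM with the ketogenic diet. Chow replicate 2 lay below ketogenic replicates 1 and 3, so its groups overlapped. Tnnc1 (ENSMUSG00000091898), the calcium sensor of heart and slow muscle, measured 5.40, 4.98 and 7.12 FPKM on chow against 3.43, 8.51 and 3.31 FPKM with the ketogenic diet. It was the only gene of the 10 with its highest value in a ketogenic library.

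Outside the filaments, myoglobin and phospholamban separated by diet and the atrial hormone was barely read. Mb (ENSMUSG00000018893) measured 11.9, 6.30 and 8.16 FPKM in the chow libraries and 1.84, 2.25 and 4.14 FPKM in the ketogenic libraries. It had the highest mean of the 10 genes over all libraries, 5.77 FPKM, a level above that of 79.1% of genes with any read. Pln (ENSMUSG00000038583), the inhibitor of the calcium pump SERCA2, measured 1.09, 0.521 and 0.910 FPKM on chow against 0.135, 0.266 and 0.441 FPKM with the ketogenic diet. These groups did not overlap, but chow replicate 2 and ketogenic replicate 3 differed by only 74 against 54 reads. Nppa (ENSMUSG00000041616), the precursor of atrial natriuretic peptide, measured 0.436, 0.224 and 0.201 FPKM on chow against 0.185, 0.232 and 0.0781 FPKM with the ketogenic diet. That is 21, 10 and 7 reads against 9, 9 and 3 reads. The exact 95% Poisson intervals of chow replicate 2 (4.80 to 18.4 reads) and ketogenic replicate 1 (4.12 to 17.1) overlap, for counting error only. Those of the libraries furthest apart, chow replicate 1 (13.0 to 32.1) and ketogenic replicate 3 (0.619 to 8.77), do not. In bulk samples fewer cells of a type and less RNA per cell cannot be told apart, and which cells these transcripts came from was not tested.

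**Figure D1:**
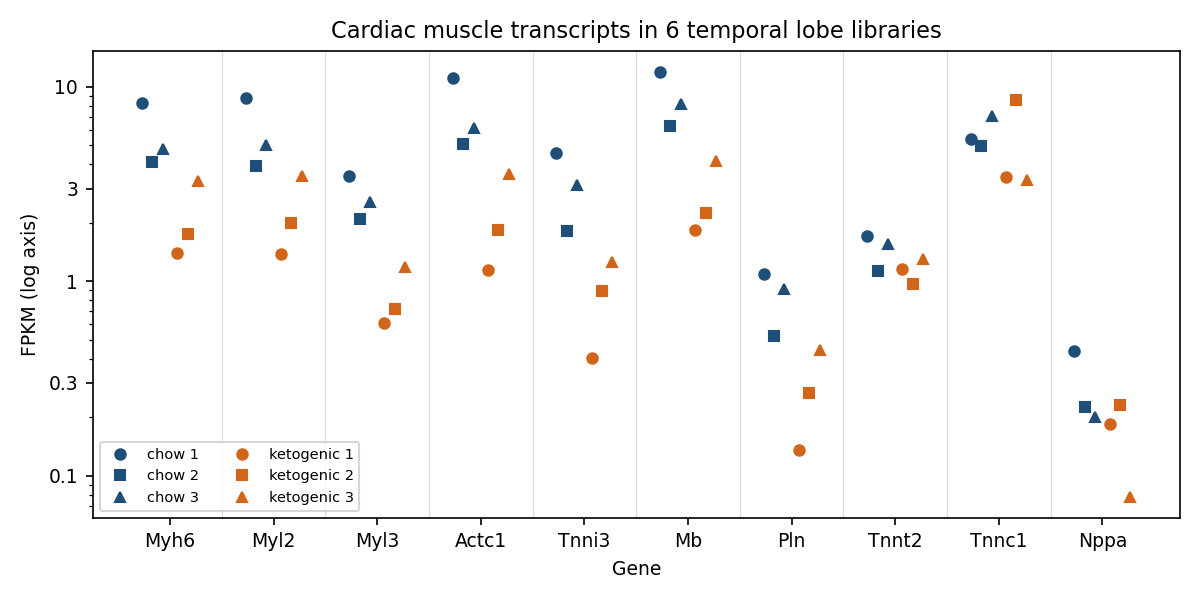
FPKM (log axis) of the 10 heart muscle genes in each of the 3 chow and 3 ketogenic libraries, 1 point per library. In the 7 genes on the left every chow point lies above every ketogenic point, while Tnnt2, Tnnc1 and Nppa overlap.

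In all, 10 of the 10 genes had a lower mean on the ketogenic diet on the log2(FPKM + 0.5) scale, with a median log2 change of -1.22. In 7 the groups did not overlap, where 7.49% of the 16009 genes tested in the table were lower without overlap and 4.9% higher. Because this contrast drew attention to the genes, nothing is read from that difference. The median log2 change over all tested genes was -0.04. The log2 changes of the 7 separated genes were -1.59 (Actc1), -1.54 (Mb), -1.42 (Tnni3), -1.27 (Myl3), -1.24 (Myh6), -1.20 (Myl2) and -0.77 (Pln), and those of Tnnc1, Tnnt2 and Nppa were -0.29, -0.25 and -0.24. With 1 library left out, these 3 ranged from -0.70 (without ketogenic replicate 2) to -0.08 (without ketogenic replicate 3) for Tnnc1, from -0.38 (without chow replicate 2) to -0.16 (without chow replicate 1) for Tnnt2, and from -0.32 (without chow replicate 3) to -0.11 (without chow replicate 1) for Nppa. Adding 0.5 shrinks the log2 change of genes as low as Pln. The summed FPKM of the 10 genes was 56.6, 30.1 and 39.6 on chow and 11.7, 19.4 and 22.02 on the ketogenic diet, a ratio of means of 2.38 that was 1.97 without chow replicate 1 and 2.03 without ketogenic replicate 1.

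The 7 separated genes ranked the libraries in 1 and the same order, also within each diet. From high to low it ran through chow replicates 1, 3 and 2 and then ketogenic replicates 3, 2 and 1. Relative to Mb in the same library, their levels stayed within narrow bounds while the levels themselves moved 5.74-fold to 11.2-fold. The ratio of Myl3 to Mb ran from 0.285 to 0.332 over the 6 libraries, a 1.16-fold range. For Myh6 it ran from 0.589 to 0.797, for Myl2 from 0.614 to 0.887 and for Actc1 from 0.619 to 0.926. The ratios of Tnni3 (0.219 to 0.398) and Pln (0.0733 to 0.118) were less even, on fewer reads, with as few as 47 and 21 in ketogenic replicate 1. Within the groups, Myh6 stood at 0.644 ± 0.0519 of Mb on chow and 0.777 ± 0.0198 on the ketogenic diet (SD, n = 3 each), and these ratios did not overlap.

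The other 3 genes did not keep such a ratio. Tnnt2 ran from 0.143 times Mb in chow replicate 1 to 0.625 times in ketogenic replicate 1, since its own level changed only 1.75-fold. Tnnc1 ran from 0.453 to 3.78 times Mb, an 8.35-fold range, with the top value in ketogenic replicate 2. In that library Tnnc1 had 398 reads, more than in any other, while Mb had its fewest, 151. Nppa ran from 0.0189 to 0.103 times Mb on 3 to 21 reads. The genes share library and depth, and 6 libraries are few, so this is a description of these samples.

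**Figure D2:**
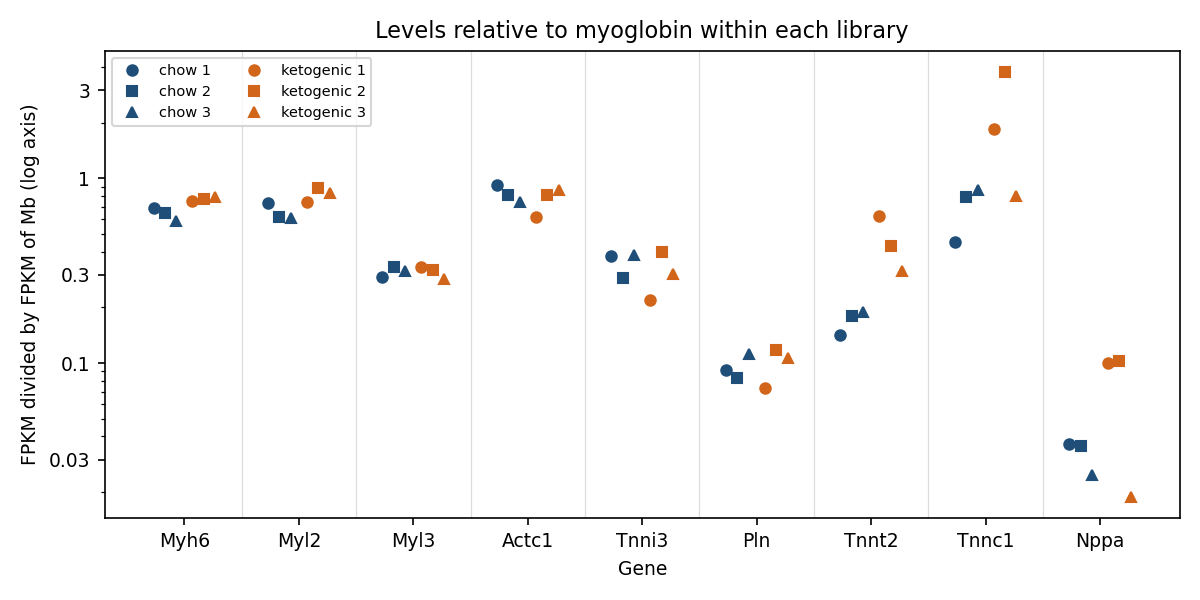
FPKM of 9 genes divided by that of Mb in the same library (log axis), 1 point per library. Myh6, Myl2, Myl3 and Actc1 keep within a 1.496-fold range, whereas Tnnt2, Tnnc1 and Nppa spread over 4.38-fold or more.

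The genes differ in how much of their sequence is their own. Whole reads recovered from the FPKM steps gave gene lengths identical to the exon length in GENCODE M21 for all 10 genes, and within 0.001 for 96.2% of 12705 genes with over 200 reads in chow replicate 1, so the read numbers above are not relative. Read totals over the 6 libraries ran from 59 (Nppa) and 450 (Pln) to 7853 (Myh6). Actc1 and Tnnc1 shared no stretch of 50 bases with another annotated gene, although actins and troponins form families of similar proteins. Myh6 shared 20.2% of its 50-base stretches with Myh7, its neighbour and close copy. Reads on both could be split, which was not tested. Myh7 followed another order (0.258, 1.16 and 0.459 FPKM on chow against 0.319, 0.925 and 1.65 FPKM with the ketogenic diet). Antisense or intronic genes on the opposite strand covered 27.6% of the exon bases of Mb (Gm49540), 59.6% of Pln (Gm47644) and 61.5% of Nppa (Gm13054). The sources used here do not give the strand setting, so reads of these pairs cannot be told apart. Gm49540 did not exceed 0.816 FPKM and Gm47644 0.0665 FPKM, values that have the same limit. Gm13054, at 0.136 to 0.424 FPKM, was as high as Nppa itself. Tnnc1 lies inside Nisch, a gene on the opposite strand at 30.9 to 39.4 FPKM, without sharing exon bases. The annotated exons of Tnnt2 add up to 7752 bases, against 1041 for Tnnc1 and 1492 for Mb, so its FPKM is divided by far more sequence than that of the other troponins.

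A further 61 genes of heart muscle were read to see whether the pattern went beyond the 10. None of the 34 that averaged 0.5 FPKM or more passed limma's test at an adjusted p under 0.05 (smallest adjusted p = 0.752), as none of the 16009 tested did (0% lower and 0% higher). At an unadjusted p under 0.05 in limma, 8 of the 34 were lower and 0 higher, where 3.32% and 2.06% of all tested genes were lower and higher (532 and 329 genes), and limma's voom on recovered reads also called 0 genes. Of these 8, Ankrd1, Nppb, Mybpc3, Hspb7 and Hrc had ketogenic means under 0.5 FPKM and entered the test through their chow values. The lists were also chosen with earlier results known, so the 8 are not support for a change. By direction of the mean, 23 of the 34 lay lower and 11 higher, where 56.9% of all tested genes lay lower. Their median log2 change was -0.18. In 9 of the 34 (26.5%) every ketogenic library lay below every chow library, and in 0 above. That count is 9 without chow replicate 1, where 10.3% of all tested genes did so, and ranges from 9 to 14 with any 1 library left out, the 14 being without chow replicate 2, where 20.8% of all tested genes did so. Of the 9 genes, 6 had a ketogenic mean under 0.5 FPKM and entered the test through their chow values, so the count is not support for a change. Without a filter, 18 of the 60 genes with any read were lower without overlap and 0 higher, beside 5.74% of 33862 genes that were lower. The share of those 33862 that was higher was not counted, and genes without a read in libraries of both diets cannot separate. Some of the 18 rested on few reads, such as Gata6 with 4, 5 and 7 on chow against 3, 1 and 2 reads. That count is therefore not support for a change either.

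The genes that separated include partners of the 10, singled out here after their values were seen. Ankrd1, a stretch-responsive protein of the heart muscle sarcomere, measured 1.01 ± 0.387 FPKM on chow and 0.224 ± 0.0905 FPKM on the ketogenic diet (SD, n = 3), a log2 change of -1.03 ± 0.24 (SE). Nppb, the ventricular natriuretic peptide, measured 1.26, 0.895 and 0.573 FPKM against 0.136, 0.0855 and 0.346 FPKM, on 55, 36 and 18 against 6, 3 and 12 reads. Its level on chow was higher than that of the atrial hormone Nppa, most of whose exon bases are shared with Gm13054. On the ketogenic diet the means of Nppb and Nppa were 0.189 and 0.165 FPKM. The mitochondrial creatine kinase of striated muscle, Ckmt2, measured 2.20, 1.19 and 1.67 FPKM against 0.275, 0.824 and 0.849 FPKM. Casq2, which holds calcium in the cardiac reticulum, measured 2.07 ± 1.05 against 0.776 ± 0.205 FPKM, and Cox7a1, the muscle form of a cytochrome oxidase subunit, 3.54 ± 1.30 against 1.44 ± 0.505 FPKM. These last 3 had means of at least 0.5 FPKM on both diets. Mybpc3, Hspb7, Hrc and Myom1 had log2 changes of -0.62, -0.79, -0.55 and -0.31.

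The most abundant of the further heart genes did not separate by diet. Of the sarcomere list, the 5 with the highest means were Tpm1, Actn2, Nebl, Tcap and Myl4, with log2 changes of 0.05, 0.57, -0.18, 0.00 and 0.45 and overlapping groups. Without chow replicate 1 the direction turned for Actn2, Myl4 and Tpm1, to -0.14, -0.05 and -0.10, and without ketogenic replicate 2 it turned for Actn2 and Tpm1, to -0.12 and -0.10. Actn2 stood at 19.0 FPKM in chow replicate 2 and 18.5 FPKM in ketogenic replicate 2 and at 7.65 FPKM or less elsewhere. The calcium genes Atp2a2, Slc8a1, Kcnh2, Ryr2 and Cacna1c had log2 changes of -0.28, -0.01, -0.45, 0.05 and -0.07. Atp2a2, the pump that phospholamban inhibits, measured 177 ± 36.0 against 146 ± 27.6 FPKM (SD, n = 3), with overlapping groups. In the energy list Slc25a4, Fabp3, Cox6a2, Pygm and Pgam2 had log2 changes of -0.09, -0.05, -0.72, -0.45 and 0.47. Cox6a2 was highest in chow replicate 1, at 33.4 FPKM against 9.22 to 13.6 FPKM in the other 5 libraries. Without that library the log2 change was -0.25 for Cox6a2, -0.05 for Pygm and -0.16 for Kcnh2.

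Several markers of the atria and of the heart lineage were at or close to 0, though not all. Myl7, an atrial light chain, had no read in 4 libraries and at most 0.0421 FPKM, and Sln, the atrial inhibitor of the calcium pump, at most 0.137 FPKM. Myl4, the other atrial light chain, was read throughout, at 0.457 to 3.69 FPKM with overlapping groups. Nkx2-5, a transcription factor of the heart lineage, was listed at 0 in all 6 libraries, and Tbx5 in 5 of them. Gata4, Tbx20, Irx4 and Hand2 did not exceed 0.0611 FPKM. Of the 5 highest identity genes, Rbm20, a splicing factor, measured 0.672 ± 0.0195 on chow against 0.826 ± 0.399 FPKM, and Popdc2, Tnni3k and Alpk3 were at 0.401 FPKM or less in every library. Alpk3 was lower without overlap, at 0.145 ± 0.0184 against 0.101 ± 0.00984 FPKM.

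**Figure D3:**
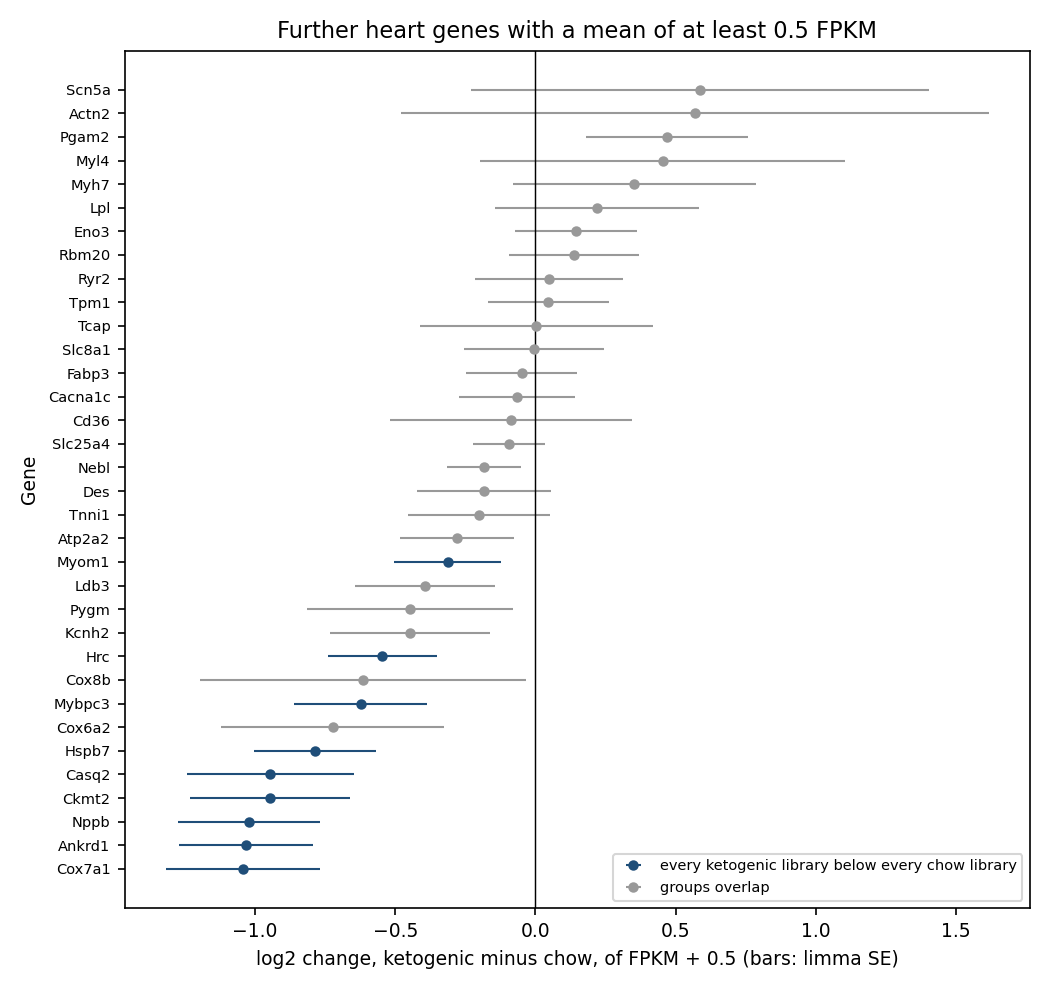
log2 change (ketogenic minus chow, FPKM + 0.5) with limma's SE for the 34 further heart genes that averaged 0.5 FPKM or more, 1 point per gene. The 9 genes whose groups do not overlap, in blue, are all lower, from Cox7a1 at -1.04 to Myom1 at -0.31.

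The sum of skeletal muscle markers overlapped between the diets. The summed FPKM of 21 such genes was 40.1, 9.42 and 11.8 on chow and 11.2, 10.5 and 8.56 on the ketogenic diet. Chow replicate 1 held that high value through Tnnt1, the slow skeletal troponin T, at 31.9 FPKM against 0.669 to 2.55 FPKM elsewhere. Acta1, the skeletal α-actin, was higher on the ketogenic diet (3.87 ± 0.936 against 2.69 ± 0.898 FPKM, overlapping groups, limma adjusted p = 0.752). The fast muscle genes differed in level. Tnnc2 and Myoz1 were at 0 in 5 of the 6 libraries each, and Myh4 and Tnnt3 did not exceed 0.168 FPKM. Mylpf and Actn3 were read in every library, at 0.385 to 1.05 and 0.227 to 0.446 FPKM. Atp2a1 was at 2.65 FPKM in chow replicate 1 and at 0.0518 to 0.243 FPKM elsewhere. Smooth muscle markers summed to 47.1, 28.1 and 20.7 FPKM on chow against 17.3, 28.0 and 22.1 FPKM with the ketogenic diet, with overlap, and were led by Myl9 at 8.04 to 14.2 FPKM. Much of the high sum in chow replicate 1 was Synpo2, at 15.3 FPKM there and 0.391 to 2.23 FPKM elsewhere.

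Summed markers of red blood cells and pericytes were lower in every ketogenic library, and those of endothelium overlapped. The 7 red blood cell genes in the table summed to 12.9, 18.5 and 35.3 FPKM on chow against 4.07, 3.28 and 4.46 FPKM with the ketogenic diet, led by Hbb-bs, so the groups were apart. Their order within chow differed from that of the heart muscle genes, with the top value in chow replicate 3 and the lowest in chow replicate 1. Pericyte markers summed to 75.2 to 95.2 FPKM on chow and 56.1 to 67.8 FPKM on the ketogenic diet, led by Vtn. All 8 were lower by mean and 2 without overlap, Rgs5 and Pdgfrb, while Vtn overlapped. Much of the difference in the sum came from Rgs5, singled out after its values were seen. It measured 41.2, 31.4 and 31.9 FPKM on chow against 20.3, 21.3 and 25.5 FPKM with the ketogenic diet. Endothelial markers, led by Ly6c1, summed to 62.9 to 85.4 against 56.6 to 65.7 FPKM, with all 8 lower by mean and 4 without overlap, from Cd93 at a log2 change of -0.66 to Cldn5 at -0.02. Over all tested genes these shares were 56.9% and 7.49%, and limma called 0 genes of the blood and vessel lists (smallest adjusted p = 0.752). The pericyte and endothelial sums were highest in chow replicate 1. The parts of blood and of vessel cells in the values of the heart muscle genes were not tested.

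Transcripts of other organs went in different directions. The 14 colon epithelium genes went the other way, from 5.90 to 8.05 FPKM summed on chow to 23.4 to 33.0 FPKM on the ketogenic diet, led by Lypd8. Fat markers, led by Fabp4, also summed higher, at 2.07 to 6.21 against 0.774 to 1.09 FPKM. Liver genes, led by Apoa2, were at 4.02 FPKM in chow replicate 1 and at 0.944 to 1.48 FPKM in the rest. Lung genes, led by Sftpc, summed to 0.491 to 0.953 FPKM over the libraries and kidney genes, led by Slc22a6, to 0.663 to 3.66 FPKM, both with overlapping groups. Choroid plexus markers, led by Ttr, were high in chow replicates 1 and 3 and ketogenic replicate 3 (855 to 1923 FPKM) and at 3.80 to 7.76 FPKM in the others. These are also the libraries highest in the heart muscle sum within their diet, and the part of that tissue in the result was not tested. Meningeal markers, led by Dcn, summed to 8.04 to 9.26 against 6.87 to 11.6 FPKM.

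**Figure D4:**
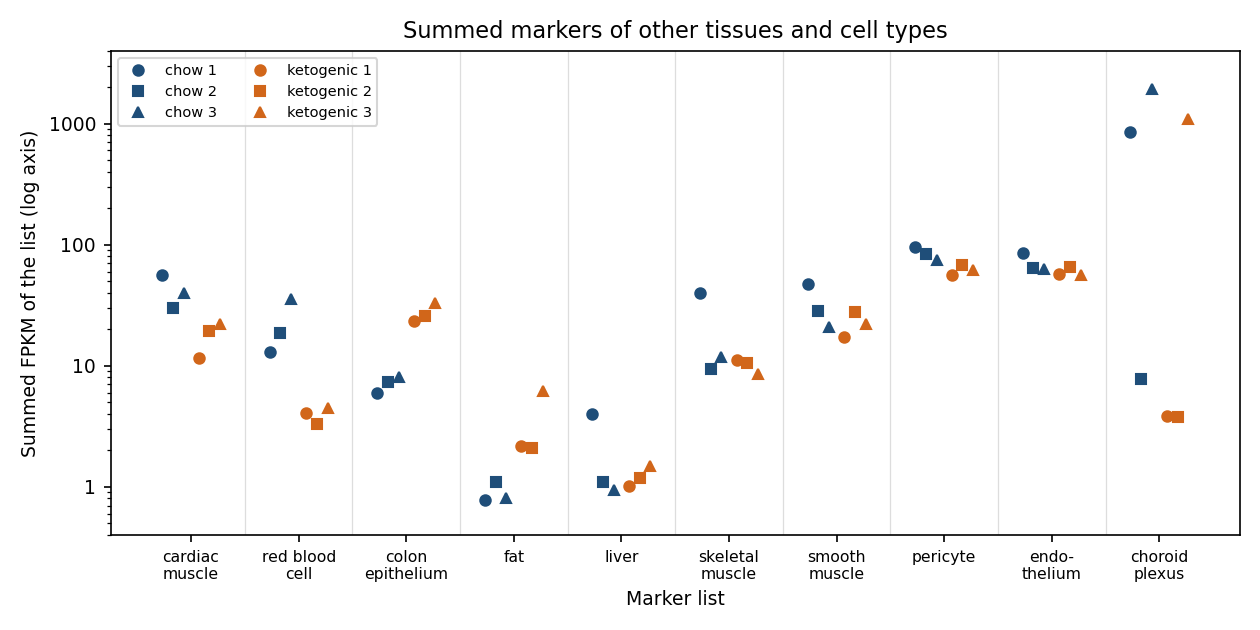
Summed FPKM (log axis) of the 10 heart muscle genes and of 9 marker lists in each library, 1 point per library. Heart muscle, red blood cell and pericyte sums are lower in every ketogenic library, colon and fat sums are higher, and the other lists overlap.

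Relatives of the 10 genes that serve in brain cells did not share a direction. Among 15 such genes 6 lay lower and 9 higher by mean. Their median log2 change was 0.02, and limma called 0 of them (adjusted p of 0.752 or more). The non-muscle actins Actb and Actg1 had log2 changes of 0.14 and 0.17. Of the non-muscle myosins, the heavy chains Myh9 and Myh10 both had -0.05, and the light chains Myl6, Myl12a and Myl12b 0.00, -0.24 and 0.03. Groups of Myl12a did not overlap (2.03 ± 0.122 on chow against 1.64 ± 0.0361 FPKM, SD, n = 3). The brain globins Ngb and Cygb, relatives of myoglobin, had 0.49 and -0.02, with Ngb at 9.36 FPKM in ketogenic replicate 3 and 1.10 to 2.83 FPKM elsewhere. The tropomyosin Tpm3 had 0.14. Nppc, which encodes C-type natriuretic peptide, had 0.02, and the receptors Npr1, Npr2 and Npr3 had -0.24, -0.10 and 0.49.

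Across the whole table, the genes most like the heart muscle sum were sought by Pearson correlation of log2(FPKM + 0.5) with log2 of the summed FPKM over the 6 libraries. Of 13325 named genes that averaged 0.5 FPKM or more, the 5 closest were Znf41-ps (0.995), Ckmt2 (0.994), Vstm4 (0.992), Rer1 (0.991) and Acat1 (0.9897). Ckmt2 is the one of these that belongs to the heart lists, and Hrc, another of them, ranked 6 at 0.989. Sizes of change differed widely, from a log2 change of -0.15 for Rer1 to -0.95 for Ckmt2. With 6 libraries 265 genes reached 0.90 or more, so a high value singles out no gene.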

How the data were processed

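Bulk RNA sequencing of 3 chow and 3 ketogenic mice was used, 1 library per mouse. Total RNA was taken with TRIzol, messenger RNA captured on oligo(dT) beads and paired-end libraries sequenced, per the labels' protocols. Reads were processed with HISAT2 and featureCounts on GRCm39, per the submitters' processing notes; the sources used here do not give versions, annotation or strand setting. The authors deposited FPKM per gene. Values are whole multiples of a step, from which reads were recovered for 100% of 33862 genes above 0 (tolerance 0.001). Relative depth ran from 0.722 to 1.01, and the median tested gene had 922 reads.

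Symbols came from GENCODE M21 by identifier (35175 matched). Genes that averaged 0.5 FPKM or more (16009, including 9 of the 10 members, all but Nppa) were fitted with limma 3.58.1 in R 4.3.3 on log2(FPKM + 0.5), diet as the only term, two-sided, with Benjamini-Hochberg adjustment over all of them and a threshold of 0.05. Library pairs were checked for duplicates by chi-square of recovered reads, with 45.3 or more per gene. Intervals cover counting error only. Members and lists were chosen with earlier results of these data known. Named genes were the members, the 5 highest genes by mean of each further heart list, the highest of each other list, genes at 0 throughout, the brain relatives (1 is not reported here) and the 5 genes most like the summed members; others are marked as chosen later. Alternatives were pseudocounts of 0.1 and 1, no filter or one of 2 FPKM, TPM rescaling, quantile and median scaling, a replicate block, voom on recovered reads and leaving out each library. Added after seeing the data was leaving out members that share over 10% of their exon bases with another gene.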

Additional observations from a re-analysis of the deposited data

How the results depend on the processing

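All 10 genes kept a lower mean on the ketogenic diet under every alternative that held all 10, and no alternative called any gene of the table. The filters and the replicate block leave the log2 changes of the 10 genes as they are, so these could not alter that count. The median log2 change of the 10 genes, -1.22, was -1.37 and -1.03 with pseudocounts of 0.1 and 1 and -1.34 after rescaling to TPM. It ranged from -1.47 to -0.93 when a library was left out, without ketogenic replicate 3 and without chow replicate 1. Of the further heart genes, 23 of 34 were lower, where 56.9% of all tested genes were. With a filter of 2 FPKM 10 of 18 were lower, a share near that 56.9%, and without a filter 47 of 60. These filters test other sets of genes. The share of all genes that was lower is not given for them, so neither count is read as an excess. Leaving out a library gave 21 to 26 of 34. The log2 changes of Myl3, Pln and Nppa moved by more than the spread within groups with a pseudocount of 0.1, to -1.61, -1.33 and -0.55, and those of Pln and Nppa also after rescaling to TPM, to -1.25 and -0.48. Rescaling to TPM raises every value before 0.5 is added, so on low genes it acts as a smaller pseudocount does. Without Mb, Pln and Nppa, which share over 10% of their exon bases with another gene, the median log2 change was -1.24. That the 7 remaining genes were all lower follows from all 10 being lower. With the replicate number as a replicate block, 0 genes were called. The median log2 change of the 10 genes was -1.22, which such a block cannot move in this balanced design. Deviations from the group means correlated at -0.04, 0.48 and -0.21 between same-numbered libraries 1, 2 and 3. The value for number 2 was the highest of any pair of libraries, followed by 0.45 for chow replicate 3 with ketogenic replicate 1. Whether the numbers pair the mice cannot be told from these values. With 3 mice per group an exact permutation test of 1 gene cannot go below a two-sided p of 0.10. Depth limits Nppa, at 3 to 21 reads, and markers near 0 such as Myl7, Sln and Tbx5.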
